A study of Mus musculus with 5 samples.

Results

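The islet hormone and insulin secretion genes are 9 mouse genes that act in the pancreatic islet or on its hormone output, *Glp1r*, *Irs2*, *Isl1*, *Gcg*, *Casr*, *Nnat*, *Hif1a*, *Aacs* and *Arrb1*, out of 22380 protein-coding genes of the NCBIM37 (mm9) annotation. All 9 had at least 1 CHART-Seq peak of the long non-coding RNA *Paupar* in their regulatory domain, and 15 of the 2849 peaks of the series lay there. The genes were selected on the presence of these peaks, so the peaks' presence, distance, width and score are described here and were not tested. Of all protein-coding genes, 16.4% had a peak under the same rule, a share that cannot be set against 9 genes selected for having one. The regulatory domain of a gene was the interval from 5 kb upstream to 1 kb downstream of its start, extended on both sides to the next such interval of a protein-coding gene and by at most 1 Mb, and a peak belonged to every domain that held its midpoint.

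CHART-Seq pulls an RNA out of crosslinked chromatin with biotinylated DNA oligonucleotides complementary to it and sequences the DNA that comes along. The cells were N2A, a mouse neuroblastoma line for which the labels give no treatment and no genetic change, and no islet cells are among the samples. There were 2 pull-downs with the *Paupar* oligonucleotides, 2 with a control oligonucleotide of bacterial *LacZ* sequence and 1 library of input DNA. A single peak list with a score per peak stands for all 5 libraries, so no value below has a replicate error and the number of reads behind a peak is unknown.

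Islet beta cells release insulin when glucose metabolism closes potassium channels and calcium enters the cell, and hormone receptors on the cell surface raise or lower that release. Glucagon from alpha cells, and the incretin GLP-1 made from the same precursor, act through G protein-coupled receptors whose signals are shaped by arrestins. The islet lineages depend on transcription factors such as PAX6 and ISL1, and *Pax6* is the protein-coding neighbour of *Paupar*.

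Strength and width were concentrated in a pair of peaks. The scores of the 15 peaks ran from 8.08 to 76.7 with a median of 11.8, beside a median of 12.69 over all 2849 peaks. A score of at least 20 was reached by 2 of the 15, a peak of *Glp1r* and a peak of *Irs2*, and by 21.9% of all peaks. The same 2 peaks were the ones over 1 kb wide, a width that 17.8% of all peaks exceeded. The other 13 were 195 to 993 bp wide, beside a median of 556 bp over all peaks, and had scores between 8.08 and 18.94.

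**Figure D1:**
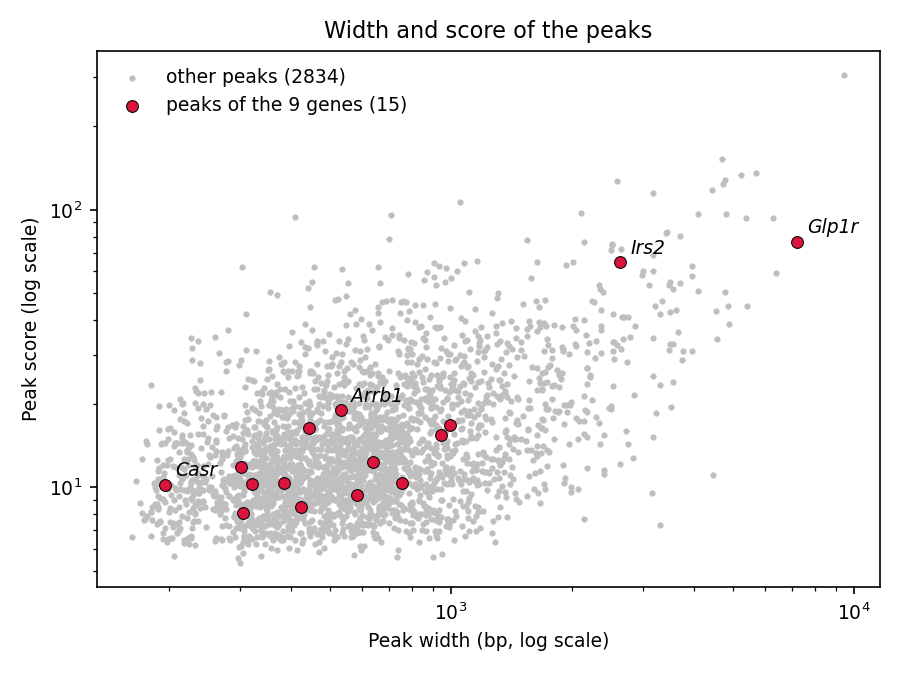
Width in bp (x axis, log scale) and score (y axis, log scale) of every peak, with the 15 peaks of the 9 genes in red and all others in grey. The *Glp1r* peak of 7198 bp and the *Irs2* peak of 2631 bp stand at the wide, high-scoring end, and the narrowest of the red points is the *Casr* peak of 195 bp.

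*Glp1r* encodes the receptor for GLP-1, the incretin that raises glucose-dependent insulin release (ENSMUSG00000024027, plus strand of chromosome 17, start at 31038785). Its nearer peak spanned 7198 bp, from 31030484 to 31037681, the second widest of the series. Its score of 76.7 ranked 23. The midpoint lay 4702 bp upstream of the gene start in intergenic sequence, the near edge 1104 bp upstream, and the peak overlapped no exon. No other gene's domain held it. A further peak of 425 bp (30941129 to 30941553) lay 97444 bp upstream in an intron of *Dnahc8*, which encodes an axonemal dynein heavy chain. Its score of 8.5 ranked 2391. The pair thus differed in width and score while *Glp1r* had the nearest protein-coding start to both.

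The wide *Glp1r* peak held a tandem array. An 8-mer, CAGGGGTG, occurred 50 times on its plus strand between 31032325 and 31034054, a stretch of 1730 bp whose centre was 5596 bp upstream of the gene start. The spacing between neighbouring copies was most often 20 bp (24 of 49 spacings). On the other strand this 8-mer reads CACCCCTG, which is part of a capture oligonucleotide used in the pull-down. The 8-mer was picked after the values were seen. The 4 *Paupar* capture oligonucleotides, each 24 nt long, are given with that 8-mer in capitals, followed by 200 bases of plus-strand mm9 sequence that begin at a copy near the middle of the array (chr17:31033160-31033359), with each copy in capitals.
PauparCHART254: ggcttaagtcCACCCCTGgattcg
PauparCHART428: gcctggaactagatcaaggcagag
PauparCHART2041: ctctcagaaactgcgatacaaaag
PauparCHART2067: gaggcctagtcaaaatatctccac
Glp1r array: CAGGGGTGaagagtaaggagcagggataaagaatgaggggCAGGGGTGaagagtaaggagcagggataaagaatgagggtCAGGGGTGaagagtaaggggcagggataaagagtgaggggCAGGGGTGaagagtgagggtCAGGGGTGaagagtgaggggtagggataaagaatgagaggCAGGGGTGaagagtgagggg
Only 1 peak of the series had more copies, with 58, and 20 peaks had at least 10. At least 1 copy was found in 467 peaks (16.4%) and in 4.87% of the regions of the same width directly beside the peaks. Of the 15 peaks, 4 held the 8-mer, the wide *Glp1r* peak, the *Gcg* peak, the nearer *Isl1* peak and the farther *Nnat* peak. Of the 12-mers in the wide *Glp1r* peak, 24.7% occurred more than once in it, and 8.81% of all peaks were at least as repetitive. Reads that map to many places were dropped by the authors. The part of the array, or of its match to the oligonucleotide, in the width and score of this peak was not tested.

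*Isl1*, a LIM-homeodomain factor needed for islet cell differentiation, had the nearest peak of all 9 genes by midpoint (ENSMUSG00000042258, minus strand of chromosome 13, start at 117099896). The peak, 444 bp wide (117102495 to 117102938), was centred 2821 bp upstream of the gene start in intergenic sequence. It had a score of 16.37, rank 922, and lay in the domain of *Isl1* alone. Together with the wide *Glp1r* peak it was 1 of 2 peaks that were not shared with another gene's domain. These 2 were also the only ones within 5 kb of a member's start. The assignment rule ties these properties together, because extended domains stop at the next gene's interval of 5 kb upstream to 1 kb downstream. A peak inside that interval is therefore shared only where such intervals overlap. A nearest peak within 5 kb was found in 13.6% of the genes with a peak. By its near edge the wide *Glp1r* peak was closer to its start, at 1104 bp against 2599 bp for this *Isl1* peak. The central 300 bases of the *Isl1* peak are shown because its midpoint was the closest of the set to a member's start (chr13:117102567-117102866, plus strand, opposite to *Isl1*). Capitals mark the 8 bases shared with PauparCHART254. The stretch also holds 2 matches of the same length to PauparCHART2067, from 117102567 to 117102574 and from 117102609 to 117102616, which are left in lower case.
Isl1 peak 1: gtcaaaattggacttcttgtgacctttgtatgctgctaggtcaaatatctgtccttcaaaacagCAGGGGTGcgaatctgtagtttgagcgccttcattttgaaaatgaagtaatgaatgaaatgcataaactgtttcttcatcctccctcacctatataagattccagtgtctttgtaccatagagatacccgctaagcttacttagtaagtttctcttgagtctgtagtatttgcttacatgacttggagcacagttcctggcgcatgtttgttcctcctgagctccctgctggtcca
Its GC content was 41.0%, above the 36.7% of the regions beside it. The other peaks of *Isl1* were farther upstream, at 140525 bp (943 bp wide, score 15.48) and at 217613 bp (305 bp wide, score 8.08). Both also lay in the domain of *Parp8*, a member of the ADP-ribosyltransferase family, whose start was 573902 and 496814 bp away. Those distances leave *Isl1* as the nearest start for all 3 of its peaks.

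*Irs2*, an adaptor that carries the insulin receptor's signal to PI3 kinase, also had 3 peaks (ENSMUSG00000038894, minus strand of chromosome 8, start at 11008458). The first was 2631 bp wide (11154324 to 11156954), 147181 bp upstream of the gene, with a score of 64.61, rank 33. This was the longest distance from a gene start to its nearest peak among the 9 genes, and the interval was shared with *Col4a2*, whose start was 157166 bp away. The second (993 bp, score 16.72) and the third (302 bp, score 11.8) lay 250874 and 270339 bp upstream, inside introns of *Col4a1*. *Col4a1* and *Col4a2* encode the type IV collagen chains of basement membranes. For these last peaks the *Col4a2* start was nearer, at 53473 and 34008 bp, so only the strongest of the 3 was nearest to *Irs2*.

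*Gcg* encodes proglucagon, the precursor of glucagon and GLP-1 (ENSMUSG00000000394, minus strand of chromosome 2, start at 62321707). Its single peak (62395309 to 62396065) was 757 bp wide with a score of 10.34, rank 1909, 73980 bp upstream in an intron of *Fap*. *Fap* encodes a serine protease of the dipeptidyl peptidase family, and its start was closer, at 16445 bp. *Casr*, the G protein-coupled calcium-sensing receptor, lay in the same situation (ENSMUSG00000051980, minus strand of chromosome 16, start at 36562227). Its peak of 195 bp (36631959 to 36632153) was among the narrowest of the series, at rank 2799 by width, with a score of 10.23. It was 69829 bp upstream, in an intron of the T cell co-stimulatory gene *Cd86*, whose start was 34111 bp away. For both genes, then, the only peak was nearer to the gene in whose intron it lay. The *Casr* peak is short enough to print whole (chr16:36631959-36632153, plus strand), with capitals for an E-box of the type bound by NEUROD1 (CAGATG, here on the minus strand). It held no match of 8 nt or more to any capture oligonucleotide, and its GC content was 52.3%, against 43.8% beside it.
Casr peak 1: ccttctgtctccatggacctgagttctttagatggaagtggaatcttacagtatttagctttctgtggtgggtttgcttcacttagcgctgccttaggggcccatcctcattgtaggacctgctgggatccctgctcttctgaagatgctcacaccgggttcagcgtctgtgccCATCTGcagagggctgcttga

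*Nnat* encodes neuronatin, a small endoplasmic reticulum protein expressed from the paternal allele in brain and islets (ENSMUSG00000067786, plus strand of chromosome 2, start at 157385814). Its peaks were 639 bp wide with a score of 12.3 (157326302 to 157326940) and 321 bp wide with a score of 10.3 (157311195 to 157311515). Their midpoints were intergenic, 59193 and 74459 bp upstream, and both peaks fell in the domain of *Src*, which encodes a tyrosine kinase. The *Src* start was 82441 bp from the first and 67175 bp from the second, so *Nnat* was the nearest gene for the first alone. Stretches of 60 bases of these peaks and of the *Gcg* peak (plus strand, at chr2:157326708-157326767, chr2:157311337-157311396 and chr2:62395724-62395783) are given because each holds pieces of the same capture oligonucleotide. Capitals mark exact matches of at least 8 nt to PauparCHART254 on either strand that lie wholly within the stretch. A further match of 8 nt in the second *Nnat* peak, from 157311392 to 157311399, runs past the end of its stretch and is in lower case.
Nnat peak 1: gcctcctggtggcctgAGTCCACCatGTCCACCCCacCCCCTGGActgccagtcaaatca
Nnat peak 2: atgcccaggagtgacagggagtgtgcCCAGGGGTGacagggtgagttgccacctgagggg
Gcg peak 1: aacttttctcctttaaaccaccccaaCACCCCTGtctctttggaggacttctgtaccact
The first *Nnat* peak had 3 separate pieces of this oligonucleotide close together. In the second the longest match, 9 nt, lay 12 bp from the peak centre. The *Gcg* match was 8 nt long.

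*Hif1a* encodes the oxygen-regulated subunit of the hypoxia-inducible factor (ENSMUSG00000021109, plus strand of chromosome 12, start at 75002362). Its peak (74943045 to 74943429, 385 bp, score 10.36) had an intergenic midpoint 59125 bp upstream. The peak also lay in the domain of the protein kinase C gene *Prkch*, 257454 bp from that start. *Aacs* encodes acetoacetyl-CoA synthetase, which turns ketone bodies into acetoacetyl-CoA in the cytosol (ENSMUSG00000029482, plus strand of chromosome 5, start at 125956184). Its peak (125945274 to 125945859, 586 bp, score 9.35) was 10617 bp upstream and shared with *Bri3bp*, 23629 bp away. Both genes were the nearest start to their peak.

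*Arrb1*, which encodes a beta-arrestin that binds activated G protein-coupled receptors, was the only one of the 9 genes with a peak downstream of its start (ENSMUSG00000018909, plus strand of chromosome 7, start at 106683976). The peak (106734718 to 106735249, 532 bp) lay 51008 bp into the gene, in an intron, with a score of 18.94, rank 704. That was the highest score outside the wide *Glp1r* and *Irs2* peaks. The start of *Gm4980* was nearer, at 39700 bp. Another annotated *Arrb1* transcript starts 8119 bp from the peak, which makes this distance depend on the transcript that is used.

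**Figure D2:**
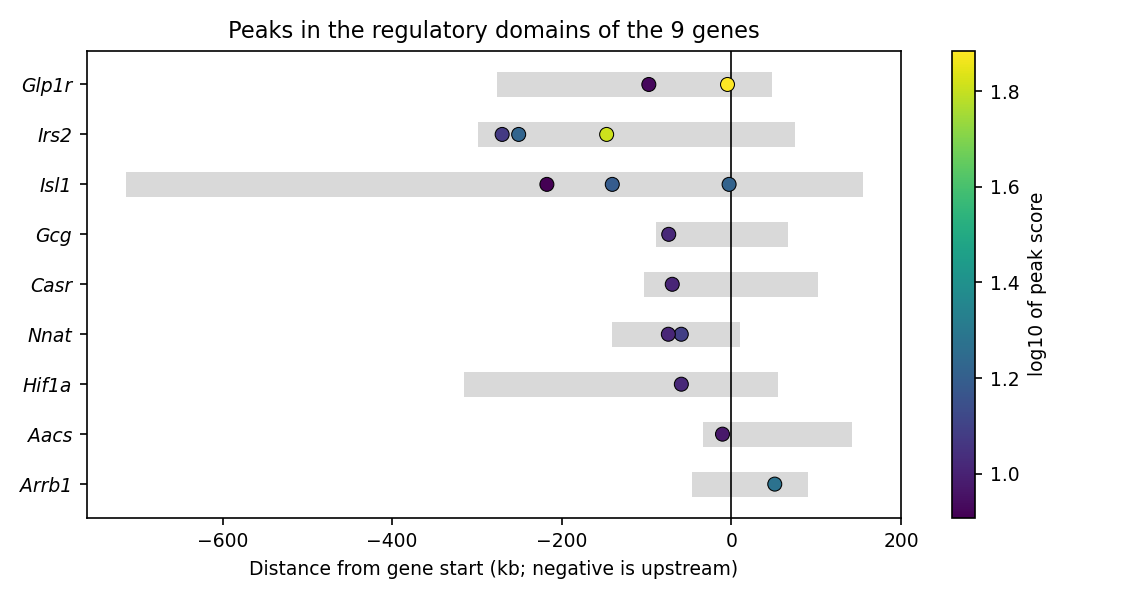
Position of the 15 peaks (points, coloured by the log10 of their score) relative to the start of each of the 9 genes, in kb, with negative values upstream. Grey bars are the regulatory domains, and 14 of the 15 points lie upstream.

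By position, 14 of the 15 peaks were upstream of the gene that they were assigned to, against 49.0% of the 5257 pairs of a gene and a peak in the series. The domains themselves were uneven, and 73.1% of the bases in the 9 domains were upstream of the gene, against 49.2% over all domains. Of the 15 peaks, 9 had their midpoint in intergenic sequence and 6 in an intron, and none overlapped an exon. A further gene's domain held 13 of the 15, near the 84.8% of all assigned peaks that lay in 2 or more domains. The member was the nearest protein-coding start for 9 of the 15 peaks and for 6 of the 9 genes, all but *Gcg*, *Casr* and *Arrb1*.

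The median distance from gene start to nearest peak was 59125 bp, and 5 of the 9 genes had it between 50 and 100 kb. Over all 3676 genes with a peak the median was 44320.5 bp. Single peaks were found in 5 of the genes, 2 peaks in *Glp1r* and *Nnat*, and 3 peaks in *Irs2* and *Isl1*. Of all genes with a peak, 73.2% had 1, 16.7% had 2 and 10.1% had 3 or more.

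The domains of the 9 genes were long. Their median length was 204688 bp, from 136435 bp for *Arrb1* to 868349 bp for *Isl1*, beside 89509.5 bp over all genes and 223279 bp over the genes with a peak. Longer domains held a peak more often. The share of genes with a peak was 3.35% in the decile of genes with the shortest domains and 37.9% in that with the longest. All 9 genes were in the upper 4 deciles, *Gcg*, *Nnat* and *Arrb1* in a decile where 19.1% of genes had a peak, *Casr* and *Aacs* where 25.4% did, *Glp1r*, *Irs2* and *Hif1a* where 32.5% did, and *Isl1* in the longest. The part of domain length in the assignment of these peaks cannot be told apart from the choice of the genes.

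**Figure D3:**
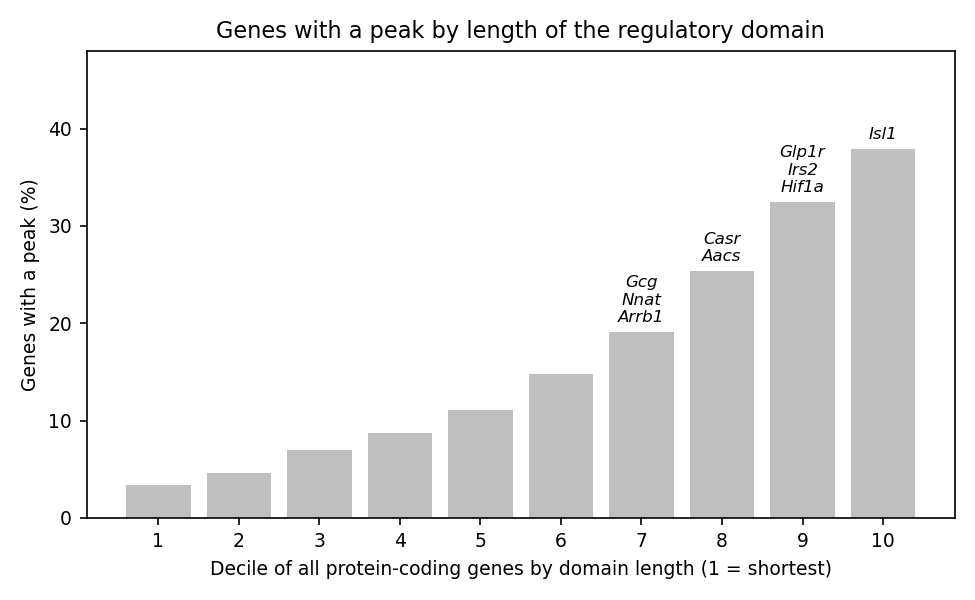
Share of genes with a peak (y axis, percent) in each decile of the 22380 protein-coding genes ordered by domain length (x axis, shortest first), with the 9 genes written above the decile that they belong to. Bars grow from 3.35% to 37.9%, and the 9 genes are in deciles 7 to 10.

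Assignment turns on the borders of the domains. The peak of *Gcg* was the closest to a border from within, at 15444 bp (score 10.34). The closest one left out was 17210 bp beyond the border of the *Irs2* domain, with a score of 20.27 and *3930402G23Rik* as its nearest gene. Next was one 35517 bp beyond the *Nnat* domain, with a score of 18.87. Its nearest gene was *Blcap*, the imprinted gene in whose intron *Nnat* lies.

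Exact matches to the capture oligonucleotides were not used to select the genes. At least 10 nt in a row matched 1 of the 4 *Paupar* oligonucleotides on either strand in 2 of the 15 peaks, while 24.6% of all peaks and 10.2% of 5693 neighbouring regions had such a match. The pair was the wide *Irs2* peak, with 11 nt of PauparCHART428, and the middle *Isl1* peak, with 10 nt of PauparCHART2067. The *Irs2* stretch is shown because its match was the longest of the set (chr8:11156545-11156604, plus strand), with the matching bases in capitals.
Irs2 peak 1: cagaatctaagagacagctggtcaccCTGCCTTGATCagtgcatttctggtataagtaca
Matches of at least 9 nt were present in 7 of the 15 peaks, against 58.5% of all peaks and 34.6% of neighbouring regions. At 8 nt the numbers were 11 of 15, 86.9% and 71.5%. Both *Nnat* peaks and the farthest *Irs2* peak reached 9 nt with PauparCHART254, and *Arrb1* reached 9 nt with PauparCHART428, 41 bp from its centre. The *Casr* and *Hif1a* peaks, the farthest *Isl1* peak and the farther *Glp1r* peak had no match of 8 nt. The *LacZ* control oligonucleotide had no match of 8 nt in any of the 15 peaks. Such a match was in 13.5% of all peaks and 13.4% of neighbouring regions. At 10 nt the *LacZ* shares were 0.281% and 0.386%. The *Paupar* values take the longest match over 4 oligonucleotides and the *LacZ* values come from 1, so the searches differ in size. At each length the share among the 15 peaks was below the share among all peaks, and with 15 peaks this is a description only. The part of these matches in the peaks was not tested.

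**Figure D4:**
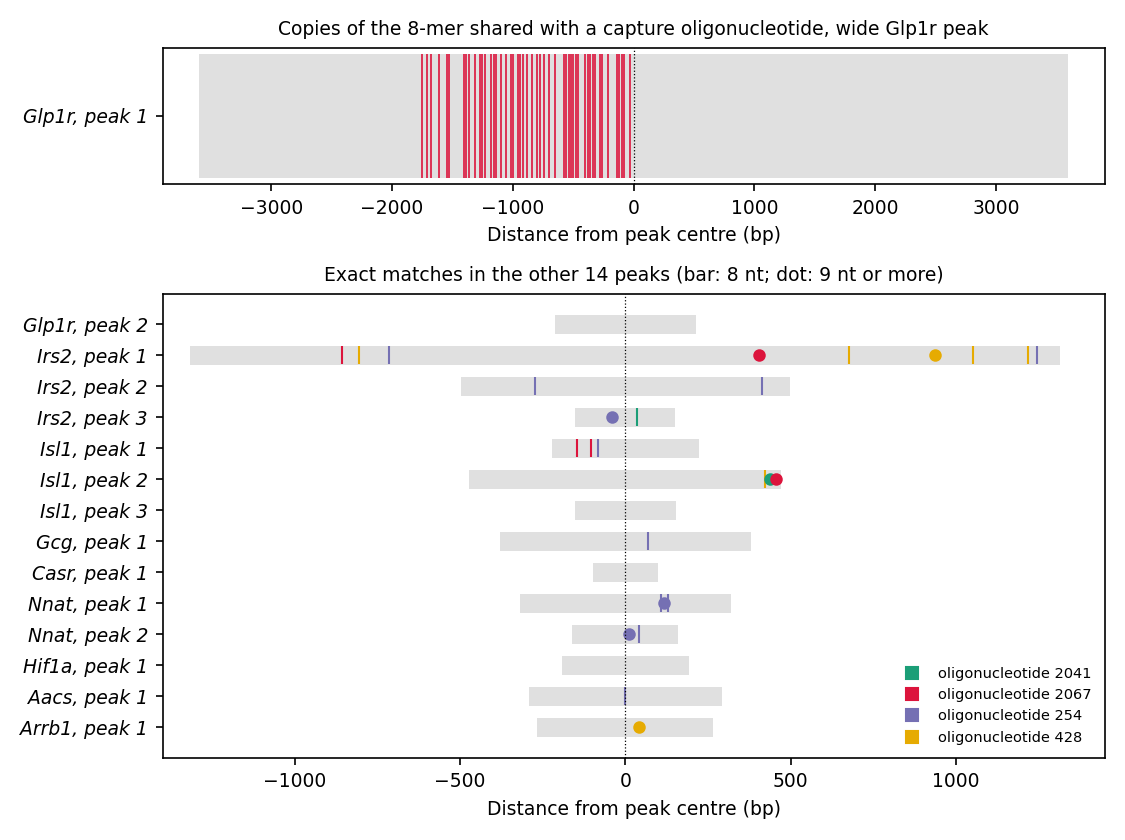
Peaks drawn as grey bars around their centre (x axis, bp). The upper panel shows the 50 copies of the 8-mer in the wide *Glp1r* peak, all left of the centre, and the lower panel shows exact matches to the 4 *Paupar* capture oligonucleotides in the other 14 peaks (bar, 8 nt, and dot, 9 nt or more, coloured by oligonucleotide), 4 of which have none.

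Base composition was close to that of the series. The 15 peaks had a median GC content of 47.5%, from 34.9% in the middle *Isl1* peak to 55.7% in the first *Nnat* peak, beside 48.1% over all peaks. GC was above that of the neighbouring regions in 9 of 15 peaks and in 70.8% of all peaks. None was a CpG island by composition. The ratio of observed to expected CpG was at most 0.378, with a median of 0.183 (0.179 over all peaks), and 2.18% of all peaks reached 0.6. Repeats within a peak were uncommon apart from the array at *Glp1r*, since 11 of 15 peaks, and 60.0% of all, had no 12-mer more than once.

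Letters of transcription factor motifs were searched on both strands in the central 200 bp, or in the whole of narrower peaks. CAGATG, an E-box of the NEUROD1 type, was in 5 of the 15 peaks, the nearest and farthest of *Irs2*, the middle one of *Isl1*, and those of *Casr* and *Hif1a*, and in 15.6% of all peaks. The PAX6 paired-domain consensus with at most 2 mismatches was in 1, the wide *Glp1r* peak, and in 9.72% of all peaks. The window searched in that peak also held copies of the array's 8-mer, at -79 and -32 bp from the peak centre. In the printed part of the array, the stretch tCAGGGGTGaa is itself 2 mismatches from this consensus on the other strand. Whether the PAX6 match and the array are the same bases was not tested. TAATTA, a homeodomain core, was in 1, the farthest *Isl1* peak, and in 4.07% of all. ACGTG, the core of hypoxia response elements and part of other E-boxes, was in 1, the farther *Glp1r* peak, and in 8.28% of all. A forkhead core (TGTTTAC), a cyclic AMP response element (TGACGTCA) and its shorter form (TGACG, contained in the longer) were in none of the 15, and in 2.67%, 0.14% and 7.23% of all peaks. These are matches of letters in a window and not sites of binding.

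Genes of the same pathways were then counted from lists of islet genes. The study's own list for positive regulation of insulin secretion was made from genes near these peaks and is no independent evidence. It holds the 9 genes and 10 others, of which 8 had a peak. *Trh*, the precursor of thyrotropin-releasing hormone, had the highest score of these (40.21, 289899 bp away). Outside this list, 35 of 107 islet genes (32.7%) had a peak. In the deciles of domain length of those genes, 22.6% of all genes had one.

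Among islet hormones and peptides 3 of 10 genes had a peak. *Ins1* (score 15.32, 755862 bp away) and *Npy* (15.25) had the highest scores, and *Pyy* had the nearest peak, at 14674 bp. The nearest peak of *Ins1*, with a score of 10.99, was 404506 bp away. *Ins2*, *Sst*, *Ppy* and *Iapp* had none. In hormone processing the count was 2 of 7, the prohormone convertase *Pcsk1* (22.17) and the carboxypeptidase *Cpe* (12.69, at 23014 bp). Islet transcription factors had a peak in 7 of 21 genes besides *Isl1*, led by *Pax6* itself (19.32, at 120287 bp), and *Pdx1*, *Nkx2-2* and *Nkx6-1* had none.

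Receptors for hormones and nutrients had a peak in 4 of 13 genes besides *Glp1r* and *Casr*. The adrenergic receptor *Adra2a* reached 28.34 with a peak 69764 bp away. Another of its peaks, with a score of 13.29, had its midpoint at 4255 bp, closer than the midpoint of the wide *Glp1r* peak. *Gipr* and *Gcgr*, the receptors most like *Glp1r*, had none. Besides *Arrb1*, 4 of 11 arrestin and G protein genes had a peak, with the G protein alpha subunit *Gnao1* at 54.91 and the receptor kinase *Grk5* at 19.86 (15920 bp), while *Arrb2* had none. Insulin receptor signalling had 5 of 13 besides *Irs2*, among them the kinase *Akt1* at 60.06 and 38719 bp, and the related adaptor *Irs1* had none. Excitation and exocytosis had 6 of 17, with the active zone protein *Rims2* at 34.67, *Cadps*, which primes dense-core vesicles, at 14.13, and *Rab27a*, a GTPase of secretory granules, at 3200 bp. The channel genes *Kcnj11* and *Abcc8* had none.

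Glucose sensing and metabolism had 1 of 8 (12.5%), the hexokinase *Hk1* (15.59), the 1 list below the share of all genes. With the genes of the study's list, which were chosen for their peaks, it had 6 of 13 (46.2%). The ketone body enzyme *Oxct1* (32.13), a gene of the study's list, had the highest score of that pathway. Imprinted genes of islet function had 3 of 9 besides *Nnat*, namely *Blcap* (18.87), *Cdkn1c* (17.43) and *Plagl1* (32535 bp away). Without the study's list, each share was set beside that of all genes in the same deciles of domain length. The values were 30% against 19.96% for hormones and peptides, 28.6% against 28.4% for hormone processing and 33.3% against 25.2% for transcription factors. Receptors had 30.8% against 20.3%, arrestins and G proteins 36.4% against 24.9%, and insulin receptor signalling 38.5% against 23.9%. Excitation and exocytosis had 35.3% against 18.05%, imprinted genes 33.3% against 26.97%, and glucose sensing and metabolism 12.5% against 18.96%. Each list held only 7 to 21 genes. The shares of these lists were not tested.

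**Figure D5:**
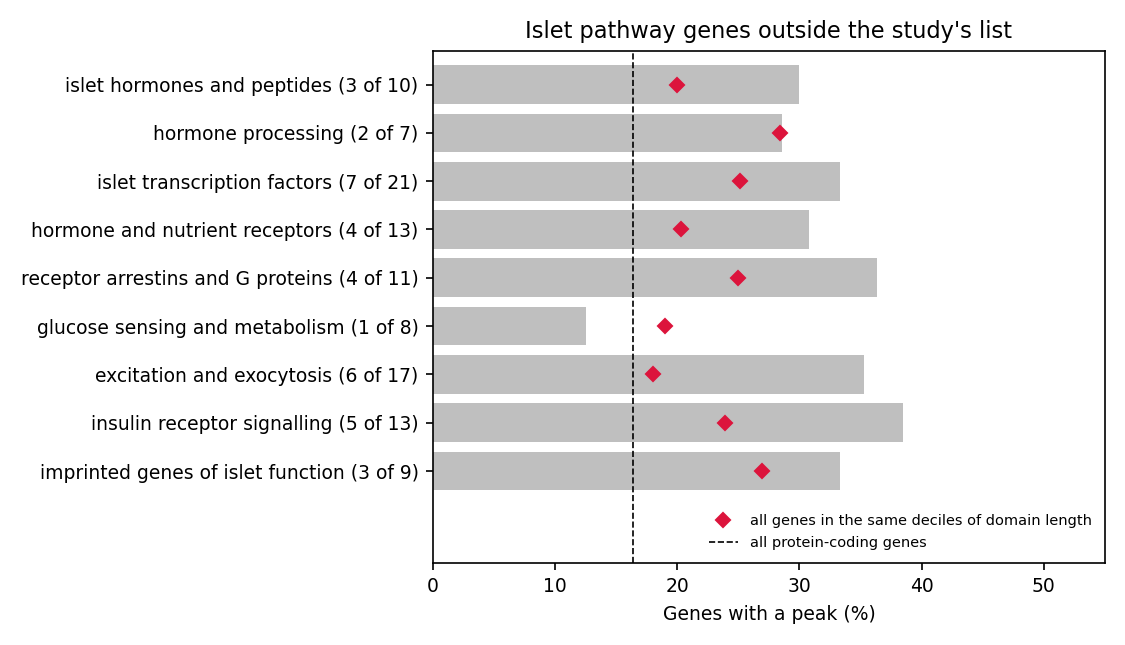
Share of genes with a peak (x axis, percent) in each list of islet genes after the genes of the study's own list were left out, with the numbers beside each name. The dashed line is the 16.4% of all protein-coding genes and the diamonds are the share of all genes in the same deciles of domain length, and 8 of the 9 bars end to the right of the line, while the bar of hormone processing (28.6%) ends at its diamond (28.4%).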

How the data were processed

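DNA from 5 libraries of N2A cells was sequenced in pairs. By the study's methods, Bowtie alignments to mm9 with a unique best hit were retained. MACS2 was then run on every *Paupar* library, once with its *LacZ* partner and once with the input DNA as control. Calls passing a limit on q in both comparisons formed the list that the authors deposited, which has coordinates and a score but no value per library. How calls were joined and what the score is computed from are not given in the sources used here, so it served for ranks and limits only. Library sizes are not in the list, and no precision can be derived for a peak.

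Peaks were assigned by midpoint to domains built from the GENCODE annotation of NCBIM37 (Python 3.11.15, numpy 2.4.6, pandas 2.3.3). A symbol carried by several genes counted as having a peak where any of them had one. Matches to the oligonucleotides were exact and at least 8 nt long. Neighbouring regions were those of equal width on each side of a peak. The code was tested on simulated data. Members and lists were chosen with earlier results of these data known. Of each list, the genes named were the 2 with the highest-scored peak and the one with the nearest peak. Some genes of the lists were counted but are not reported here by name. Genes named as having no peak, and the 8-mer, were chosen after the values were seen. No test was made, because the peaks chose the genes.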

Additional observations from a re-analysis of the deposited data

How the results depend on the processing

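With domains extended by at most 100 kb 8 of the 9 genes had a peak, all but *Irs2*, with a median distance of 55066.5 bp. The share of all genes was then 11.8% and 21 of the 107 islet genes had a peak. With each peak given to the nearest start alone 6 genes (without *Gcg*, *Casr* and *Arrb1*) and 9 peaks were left, with a median distance of 34871 bp, 9.95% of all genes and 21 islet genes. Without extension *Glp1r* and *Isl1* alone had a peak (2 genes, 2 peaks, median 3761.5 bp), as did 1.71% of all genes, 2 genes of the study's list and 1 islet gene. At a score of at least 10 the 8 genes without *Aacs* had a median of 59159 bp, and 12.6% of all genes had a peak. At 20, *Glp1r* and *Irs2* were left (2 genes, 2 peaks, median 75941.5 bp), with 4.36% of all genes, 5 of the study's list and 9 islet genes. Counting any overlap, or merging peaks within 10 kb, left 9 genes with 15 peaks. Oligonucleotide matches were in 2 peaks at 10 nt, 7 at 9 nt, 0 at 12 nt and, in an alternative chosen after seeing the data, 11 at 8 nt. The PAX6 consensus was in 1 peak with at most 2 mismatches, 0 with 1 and 8 with 3. From the nearest transcript start the *Arrb1* distance was 8119 bp. No paired analysis was possible because the list holds no value per library, and no library could be left out for the same reason. Depth per peak is unknown, so a gene without a peak is not shown to lack *Paupar*.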
